A study of Brassica rapa with 8 samples.

Results

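GH3 enzymes join amino acids to plant hormones and related acids, and several members of the family in *Arabidopsis thaliana* act on indole acetic acid (IAA). Described here are 3 *GH3* genes of *B. rapa* named in the study, out of 46250 genes listed, which are grouped here as outside IAA conjugation. They are *GH3.11* (BraA05g001430.3C), *GH3.15* (BraA03g005710.3C) and *GH3.18* (BraA05g017470.3C), chosen by these names, with earlier results of these data known. All 3 were found in the count tables of the 8 libraries. In *A. thaliana*, GH3.11 is the enzyme JAR1, which joins jasmonic acid to isoleucine and so makes the jasmonate that the COI1 receptor perceives. GH3.15 of *A. thaliana* prefers indole butyric acid (IBA), the long-chained auxin precursor, over IAA. No substrate is stated here for GH3.18, so its place in this group rests on the choice alone. The names rest on the study's mapping of *B. rapa* proteins to those of *A. thaliana*, and the activities have not been measured in these seedlings.

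The libraries were made from whole seedlings of Chinese cabbage (*B. rapa* ssp. *pekinensis*, cultivar Cantonner Witkrop), with 2 biological replicates per group. Seedlings 1 day old were moved to agar holding 0.01 mM of an alanine conjugate, and the control seedlings to agar without hormone. The conjugates were those of indole acetic acid (IAA-Ala), of indole propionic acid (IPA-Ala) and of indole butyric acid (IBA-Ala). All groups were kept in continuous light at 22 °C for 24 h by the protocol, whereas the sample titles give 3 h. They carry the same amino acid and differ in the side chain of the auxin, which is shortest in IAA-Ala and longest in IBA-Ala. Whole seedlings were pooled for RNA, so a lower level in each cell and fewer cells that express a gene cannot be told apart. The libraries held 16616214 to 19521990 counts on genes, and levels are given as CPM, the counts relative to the depth of a library after scaling by edgeR's TMM factors. Reads lay outside annotated genes for 15.9% to 19.3% of those uniquely aligned. The identifiers carry no gene names or lengths in the files, so that tissue markers were not checked and the levels of different genes are not compared with each other.

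None of the 3 genes passed the study's threshold after any conjugate. With a threshold of 0.01 for the adjusted *p*, edgeR's quasi-likelihood test called 0 of 3 for IAA-Ala (0.0486% of all genes tested), 0 of 3 for IPA-Ala (0.488%) and 0 of 3 for IBA-Ala (0.00370%). DESeq2 also called 0 of 3 for each conjugate at this threshold, against 1.52%, 1.60% and 3.10% of the genes to which it gave an adjusted *p*. At an unadjusted *p* below 0.05, 1 of 3 passed for IAA-Ala (*GH3.15*, with lower counts), 0 of 3 for IPA-Ala and 0 of 3 for IBA-Ala, against 13.6%, 8.60% and 14.9% of all genes tested. *GH3.11* had a higher mean than the control after each conjugate, and *GH3.15* and *GH3.18* had a lower one. The 3 comparisons share the control libraries, so that these common signs do not count as separate observations.

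*GH3.15*, the gene of the IBA-preferring type, was at 134 and 99.4 CPM in the control replicates (2466 and 1589 counts). After IAA-Ala the level was 52.2 and 67.8 CPM (964 and 1263 counts). With IPA-Ala it was 92.0 and 63.9 CPM (1582 and 1139 counts), and with IBA-Ala 69.3 and 100.2 CPM (1344 and 1891 counts). Both IAA-Ala replicates and both IPA-Ala replicates lay below both controls, while IBA-Ala replicate 2 lay just above control replicate 2. Lying below both controls was common, at 21.9% of all genes tested after IAA-Ala and 17.6% after IPA-Ala.

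The group means of *GH3.15* followed the order of 117 ± 24.7 CPM (SD, n = 2) in the control, 84.7 ± 21.9 after IBA-Ala, 78.0 ± 19.9 after IPA-Ala and 60.0 ± 11.05 after IAA-Ala. Each pair of neighbours in this order overlapped in its libraries. The log2 fold change against the control was -0.97 after IAA-Ala (standard error 0.27, 95% interval from -1.58 to -0.37), which is 0.509 times the control level. In the quasi-likelihood test of edgeR, adjusted by Benjamini and Hochberg, its unadjusted *p* was 0.00477 and its adjusted *p* 0.169, and 2.80% of the 26769 genes tested had a smaller *p*. DESeq2 gave the same log2 fold change to 2 decimals with an adjusted *p* of 0.0485. After IPA-Ala the log2 fold change was -0.59 (standard error 0.29, from -1.23 to 0.05, adjusted *p* = 0.634), and after IBA-Ala it was -0.47 (standard error 0.28, from -1.10 to 0.17, adjusted *p* = 0.479). When single libraries were left out, the values stayed negative, from -1.18 to -0.76 for IAA-Ala, from -0.87 to -0.35 for IPA-Ala and from -0.76 to -0.22 for IBA-Ala. Without control replicate 1, they were -0.76, -0.36 and -0.23, and the values nearest to 0 came without IPA-Ala replicate 2 (-0.35) and without IBA-Ala replicate 1 (-0.22). These intervals hold for single genes and are not adjusted for the number of genes tested.

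*GH3.11*, the gene of the jasmonate-conjugating type, was at 38.2 and 31.2 CPM in the control replicates (701 and 499 counts). The level was 39.1 and 43.0 CPM with IAA-Ala (722 and 801 counts), 31.7 and 41.6 CPM with IPA-Ala (545 and 742 counts), and 45.6 and 34.3 CPM with IBA-Ala (885 and 647 counts). Both IAA-Ala replicates lay above both controls, as in 24.3% of all genes tested, whereas 1 replicate each of IPA-Ala and IBA-Ala lay between the controls. The libraries span a narrow range for this gene, and no group stands apart from the others.

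The means of *GH3.11* were 41.0 ± 2.77 CPM (SD, n = 2) after IAA-Ala, 39.9 ± 7.997 after IBA-Ala, 36.7 ± 7.02 after IPA-Ala and 34.7 ± 4.93 in the control, and neighbours in this order overlapped. The log2 fold change was 0.23 with IAA-Ala (standard error 0.25, adjusted *p* = 0.730), 0.07 with IPA-Ala (standard error 0.26, adjusted *p* = 0.985) and 0.20 with IBA-Ala (standard error 0.26, adjusted *p* = 0.752). As folds, the 95% intervals spanned 0.795 to 1.73, 0.698 to 1.58 and 0.765 to 1.73. A doubling or a halving of *GH3.11* lies outside all 3 intervals, whereas smaller changes lie within them. The sign was not stable after IPA-Ala, where the log2 fold change was -0.061 without control replicate 2 and -0.14 without IPA-Ala replicate 2, nor after IBA-Ala, where it was -0.017 without IBA-Ala replicate 1.

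*GH3.18* had few reads in every library. The control replicates held 21 and 57 counts, which are 1.14 and 3.57 CPM. The IAA-Ala replicates held 27 and 26 counts (1.46 and 1.395 CPM), the IPA-Ala replicates 23 and 32 (1.34 and 1.80 CPM) and the IBA-Ala replicates 15 and 39 (0.773 and 2.07 CPM). No group stands apart. Control replicate 2 lay above the other 7 libraries, and control replicate 1 lay below 6 of them. The exact Poisson 95% intervals of the controls, which cover counting error only, ran from 12.999 to 32.1 counts and from 43.2 to 73.9 counts, so that the controls were further apart than counting error gives.

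The means of *GH3.18* were 2.36 ± 1.71 CPM (SD, n = 2) in the control, 1.57 ± 0.323 after IPA-Ala, 1.43 ± 0.0464 after IAA-Ala and 1.42 ± 0.915 after IBA-Ala, and neighbours in this order overlapped. The log2 fold change against the control was -0.71 with IAA-Ala (standard error 0.62), -0.57 with IPA-Ala (standard error 0.59) and -0.71 with IBA-Ala (standard error 0.67). The adjusted *p* from edgeR's test were 0.643, 0.9004 and 0.662. The lower level rested on control replicate 2. Without it, the log2 fold change was 0.31 for IAA-Ala, 0.45 for IPA-Ala and 0.30 for IBA-Ala. The interval after IBA-Ala ran from 0.210 to 1.78 times the control level, so that the direction of a difference is not settled for this gene.

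**Figure D1:**
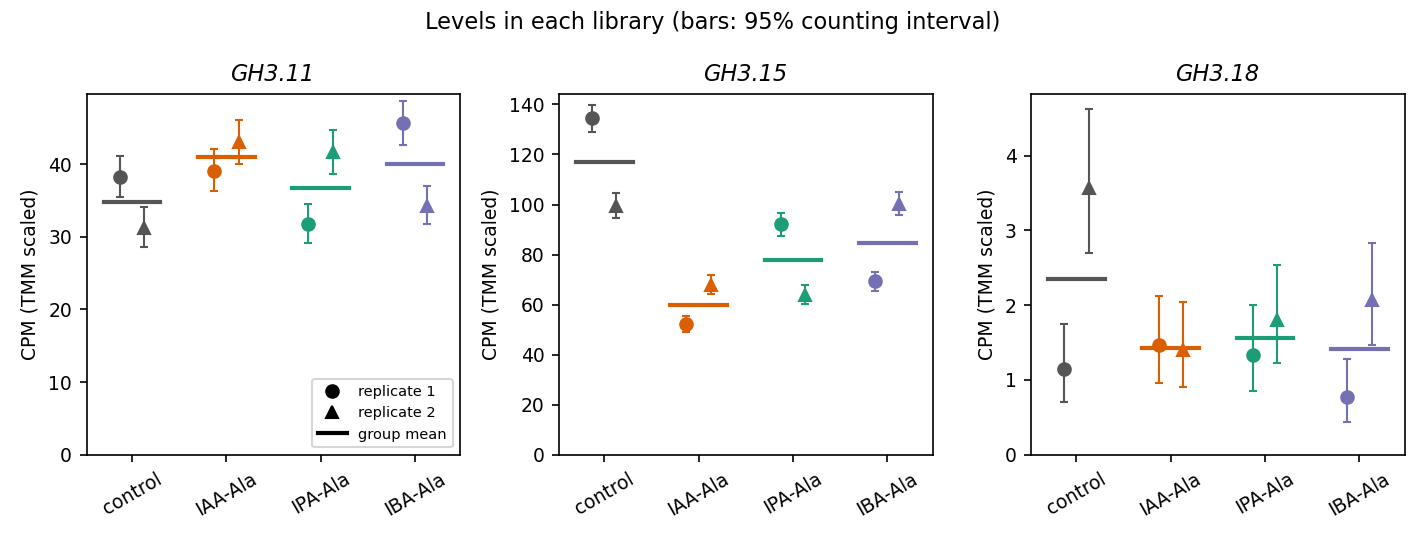
Levels of *GH3.11*, *GH3.15* and *GH3.18* in CPM on the y axis by group on the x axis, with a circle for replicate 1, a triangle for replicate 2, bars for the exact Poisson 95% interval of the count and a line for the group mean. *GH3.15* is highest in control replicate 1 (134 CPM) and lowest in IAA-Ala replicate 1 (52.2 CPM), and *GH3.18* is highest in control replicate 2 (3.57 CPM).

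Replicates of *GH3.15* and *GH3.18* differed more than those of most genes in some groups. For *GH3.15*, the difference between replicates on the log2 scale was 0.53 in size for IPA-Ala and 0.53 for IBA-Ala, larger than for 87.7% and 91.1% of the 1954 genes within 0.5 of its mean log2 CPM. In the control and IAA-Ala groups it was 0.43 and 0.38 in size, larger than for 60.0% and 80.1% of them. Each percentage refers to genes in the same pair of libraries, and these pairs differed in spread. At the level of *GH3.15*, the median difference was 0.35 in the control, 0.18 with IAA-Ala, 0.21 with IPA-Ala and 0.18 with IBA-Ala. At the level of *GH3.18*, it was 0.56 in the control and 0.57 with IAA-Ala. Every comparison with the control uses its 1 pair. For *GH3.18*, the replicates of the control differed by 1.55 in size and those of IBA-Ala by 1.30, larger than for 92.9% and 91.8% of 2654 genes at a similar level. *GH3.11* lay at 43.3% in the control, 37.6% with IAA-Ala, 77.8% with IPA-Ala and 81.5% with IBA-Ala among 3545 genes. The values rest on 2 libraries for each group.

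When the mean of the 3 conjugate groups was set against the control in one fit of all 8 libraries, 0 of 3 genes were called by edgeR at the threshold of 0.01, against 0.476% of 27948 genes tested, and DESeq2 called 0 of 3, against 2.93% of genes. *GH3.15* alone was below 0.05 without adjustment, 1 of 3 genes against 15.3% of all genes. *GH3.15* had a log2 fold change of -0.67 (standard error 0.21, interval from -1.14 to -0.20). Its adjusted *p* was 0.152 in edgeR's quasi-likelihood test over all genes. For *GH3.11* and *GH3.18* the log2 fold changes were 0.17 (standard error 0.19, adjusted *p* = 0.730) and -0.65 (standard error 0.49, adjusted *p* = 0.582). Without control replicate 2, the value of *GH3.18* was 0.36. In a two-sided exact permutation test over the 28 ways to pick 2 of 8 libraries, *p* was 0.0714 for *GH3.15*, 0.321 for *GH3.11* and 0.357 for *GH3.18*, where the smallest possible *p* is 0.0357. Adjusted over the 3 genes by the Benjamini-Hochberg method, these exact permutation *p* were 0.214, 0.357 and 0.357. For each of the 3 genes, treated and control libraries overlapped. By comparison, 7.70% of all genes had the 6 treated libraries above both controls and 6.15% had them below.

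The conjugates were also compared with each other, which gave 3 pairs for each gene. By edgeR's quasi-likelihood test and the threshold of 0.01, 0 of 3 genes were called between IPA-Ala and IAA-Ala (0.00% of all genes), between IBA-Ala and IAA-Ala (0.00%) and between IBA-Ala and IPA-Ala (0.00%). By the same test, 0 of 3 genes had an unadjusted *p* below 0.05 in each of these comparisons. Among all genes tested, 6076 of 26762, 7342 of 26952 and 2146 of 26940 had one. DESeq2 called 875, 1786 and 91 genes (4.60%, 8.72% and 0.359%) at an adjusted *p* below 0.01. *GH3.11* and *GH3.15* were not among them, nor was *GH3.18* between IBA-Ala and IPA-Ala, whereas DESeq2 gave it no adjusted *p* in the other comparisons between conjugates. The largest difference was that of *GH3.15*, which was higher after IBA-Ala than after IAA-Ala by 0.50 on the log2 scale (standard error 0.23, interval from -0.03 to 1.03, adjusted *p* = 0.205). Both IBA-Ala replicates lay above both IAA-Ala replicates, as in 29.2% of all genes tested. *GH3.15* was also higher after IPA-Ala than after IAA-Ala, by 0.37 (standard error 0.23, interval from -0.15 to 0.89). With 1 library left out, these values ranged from 0.21 (without IBA-Ala replicate 2) to 0.76 and from 0.084 (without IPA-Ala replicate 1) to 0.61. From IPA-Ala to IBA-Ala the difference was 0.12 (standard error 0.25, interval from -0.46 to 0.69). The interval for IBA-Ala against IAA-Ala allows for no difference as well as for a doubling.

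For *GH3.11*, the differences between conjugates were -0.17 from IAA-Ala to IPA-Ala (interval from -0.62 to 0.28), -0.04 from IAA-Ala to IBA-Ala (from -0.49 to 0.41) and 0.12 from IPA-Ala to IBA-Ala (from -0.39 to 0.63), all on the log2 scale. The sign of the difference from IAA-Ala to IBA-Ala turned when counts were scaled by library totals alone, to 0.065, as did that of *GH3.18*, to 0.085. In the same order, *GH3.18* differed by 0.13 (interval -0.96 to 1.22), -0.01 (interval -1.37 to 1.34) and -0.15 (interval -1.44 to 1.13). These intervals are wide, and equal effects of the conjugates on *GH3.18* were not shown.

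**Figure D2:**
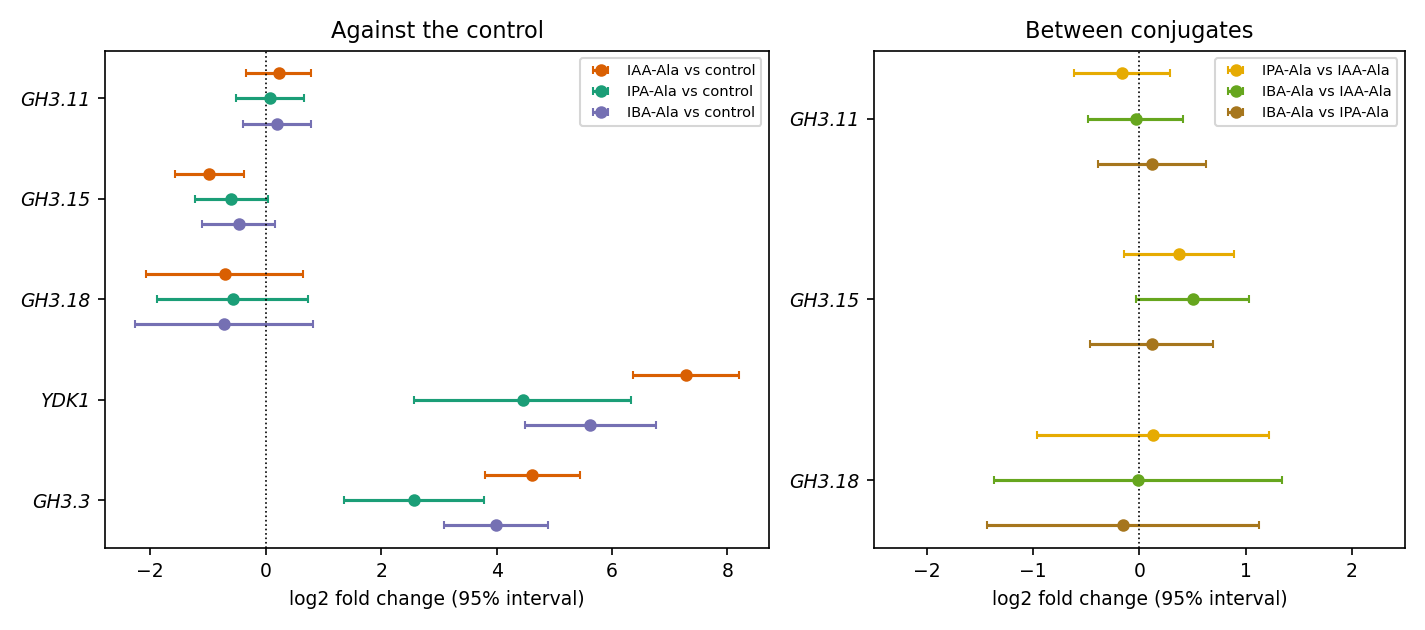
Log2 fold changes on the x axis with 95% intervals from edgeR's quasi-likelihood test, against the control on the left and between conjugates on the right, by gene on the y axis. The intervals of *GH3.11* and *GH3.18* include 0 in each comparison, and that of *GH3.15* lies below 0 after IAA-Ala (-0.97) and includes 0 in the other comparisons shown.

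For comparison, *YDK1* and *GH3.3* are auxin-conjugating *GH3* genes that the study called as changed in these same libraries. Being chosen for their change, they do not stand for auxin-conjugating *GH3* genes in general. Other such genes named in the study were not examined here. *YDK1* (*GH3.2*, BraA01g001510.3C), which makes IAA amino acid conjugates, was at 0.491 and 1.06 CPM in the control replicates, at 134.7 and 104.3 CPM with IAA-Ala, at 4.60 and 29.1 CPM with IPA-Ala and at 26.2 and 49.2 CPM with IBA-Ala. Its 6 treated libraries lay above both controls. *GH3.3* (BraA09g054360.3C), of the same activity, was at 11.2 and 6.38 CPM in the control replicates and between 22.3 and 261.3 CPM in the treated libraries, again without overlap. The log2 fold change of *YDK1* was 7.28 with IAA-Ala (adjusted *p* = 0.000114), 4.46 with IPA-Ala (0.0340) and 5.63 with IBA-Ala (0.0101). That of *GH3.3* was 4.62 with IAA-Ala (adjusted *p* = 0.000938), 2.58 with IPA-Ala (0.0602) and 3.99 with IBA-Ala (0.0113). The log2 fold change of largest size among the 3 genes described here was -0.97. Whether *GH3.11*, *GH3.15* and *GH3.18* differ from *YDK1* and *GH3.3* in their response was not tested.

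The study names 12 auxin-related genes in a legend, among them *YDK1* and *GH3.3*, and chose them on these samples, so that they are no independent evidence of a direction. Of these, 3 of the 11 tested rose with IAA-Ala, 1 of 12 with IPA-Ala and 0 of 12 with IBA-Ala by edgeR's test at the threshold of 0.01, and 0 fell. Without adjustment, 10, 11 and 11 were higher and 1, 1 and 1 lower at *p* below 0.05, and DESeq2 called 4, 7 and 10 higher and 0, 0 and 1 lower at 0.01, where it called 370, 416 and 807 of all genes. Their median log2 fold changes were 1.73, 2.30 and 2.66. The medians over *GH3.11*, *GH3.15* and *GH3.18* were -0.71, -0.57 and -0.47, and those over all genes tested were -0.02, -0.02 and -0.01. Among all genes tested, the absolute log2 fold change of *GH3.15* was larger than that of 87.7% of genes for IAA-Ala, 80.4% for IPA-Ala and 61.6% for IBA-Ala. That of *GH3.11* was larger than that of 34.7%, 15.1% and 30.1%, and that of *GH3.18* larger than that of 77.7%, 79.4% and 78.4%.

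**Figure D3:**
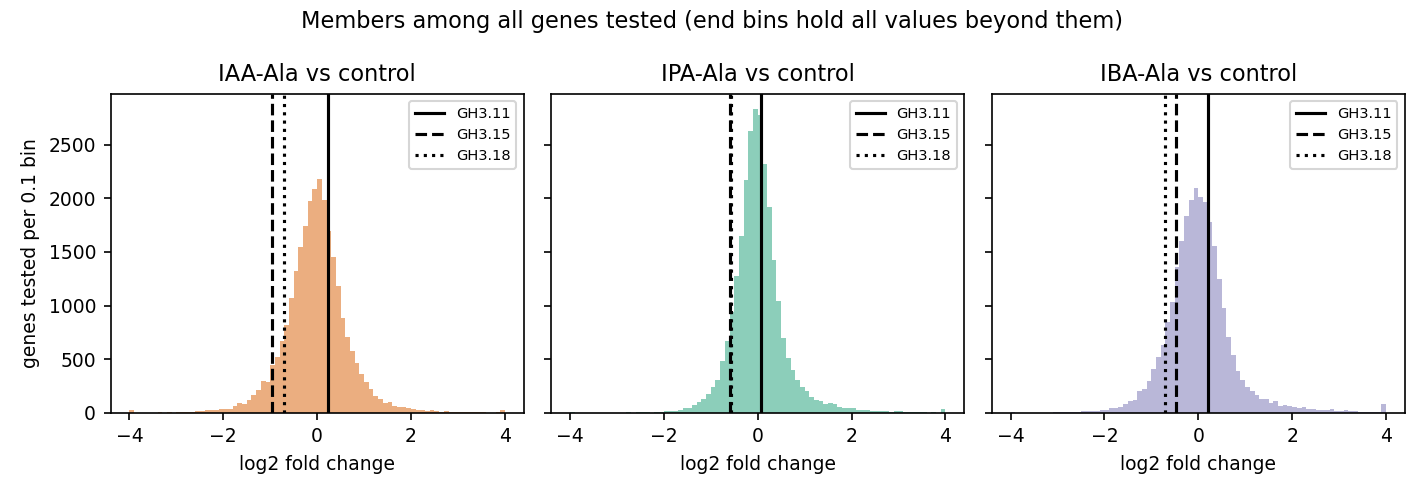
Number of genes tested (y axis) by log2 fold change against the control (x axis, bins of 0.1, with the end bins holding all values beyond), with a panel for each conjugate. The lines mark *GH3.11*, *GH3.15* and *GH3.18*, with *GH3.15* at -0.97, -0.59 and -0.47. After IAA-Ala, *GH3.15* lies on the lower flank, with an absolute change larger than that of 87.7% of genes tested.

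The ratio of 2 genes within a library does not depend on depth or scaling, and gene lengths cancel when it is compared between libraries. The ratio of *GH3.11* to *GH3.15* was examined after their values had been seen, and it is given without a test. For every 100 counts of *GH3.15*, the control replicates held 28.4 and 31.4 counts of *GH3.11*. The IAA-Ala replicates held 74.9 and 63.4, the IPA-Ala replicates 34.5 and 65.1, and the IBA-Ala replicates 65.8 and 34.2. The 6 treated libraries lay above both controls, but IPA-Ala replicate 1 and IBA-Ala replicate 2 lay close to them. Neither gene separated treated from control libraries by itself. Among single genes, 7.70% had the 6 treated libraries above both controls and 6.15% had them below. The share among ratios of other gene pairs was not determined, so no weight is put on this separation. The mean was 29.9 ± 2.10 (SD, n = 2) in the control, 69.2 ± 8.11 with IAA-Ala, 49.8 ± 21.7 with IPA-Ala and 50.03 ± 22.4 with IBA-Ala, or 2.31, 1.66 and 1.67 times the control.

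**Figure D4:**
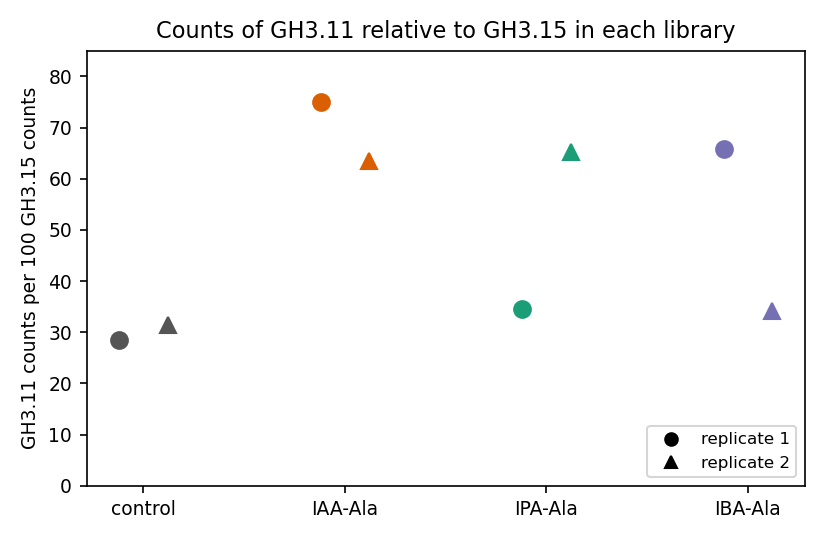
Counts of *GH3.11* per 100 counts of *GH3.15* (y axis) in each library by group (x axis), with a circle for replicate 1 and a triangle for replicate 2. The controls are at 28.4 and 31.4, both IAA-Ala replicates are above 60, and the replicates of IPA-Ala and of IBA-Ala lie apart from each other.

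Over the 8 libraries, the log2 CPM of *GH3.11* and *GH3.15* had a Pearson correlation of -0.55 and a Spearman correlation of -0.55. *GH3.11* and *GH3.18* had a Pearson correlation of -0.67 (Spearman -0.52), and *GH3.15* and *GH3.18* one of 0.19 (Spearman -0.02). With *YDK1*, the Pearson correlation was 0.51 for *GH3.11* (Spearman 0.45) and -0.82 for *GH3.15* (Spearman -0.71). For *GH3.18* with *YDK1* the signs differed, at -0.20 (Spearman 0.21). With *GH3.3*, the Pearson correlation was 0.60 for *GH3.11* (Spearman 0.57), -0.69 for *GH3.15* (Spearman -0.43) and -0.33 for *GH3.18* (Spearman -0.02). The points of these correlations are the same 8 libraries in 4 groups and share their depth and scaling, so the values describe these libraries only. The negative values of *GH3.15* with *YDK1* and *GH3.3* contain the difference between control and treated groups.

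The genes whose log2 CPM was most like that of a member over the 8 libraries were taken as the 2 with the highest Pearson correlation among 27947 genes. They were BraA05g016770.3C (0.975) and BraA06g028630.3C (0.970) for *GH3.11*, BraA08g005920.3C (0.978) and BraA05g025980.3C (0.977) for *GH3.15*, and BraA01g029400.3C (0.991) and BraA07g029520.3C (0.953) for *GH3.18*. The genes like *GH3.15* had means of 21.3 and 21.8 CPM in the control and of 14.4 and 14.6 CPM after IAA-Ala. Their means were 16.2 and 16.1 CPM after IPA-Ala and 16.2 and 16.6 CPM after IBA-Ala. Since they were picked by their correlation, their levels follow those of *GH3.15* by choice. A correlation above 0.9 was found for 13 genes with *GH3.11*, 131 with *GH3.15* and 17 with *GH3.18*, and one below -0.9 for 16, 164 and 28 genes. These are the highest of many values and no test is given, and no names are paired with these identifiers here.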

How the data were processed

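RNA of whole seedlings was sequenced in 8 libraries, grouped by the titles of the sample labels. The authors clipped the first 9 bases of single reads of about 50 bp, aligned them to the Chiifu V3.0 genome with STAR 2.7.1a and counted reads per gene and strand with HTSeq 1.99.2. The deposited values are raw counts. Tables named as normalized hold the same raw counts for genes with at least 2 counts in all. Reads outside genes made up 15.9% to 19.3% of uniquely aligned reads, and reads aligned at several places (2432970 to 2881490 per library) were not counted, so that genes with near-identical copies are uncertain. Of 46250 identifiers, 0 were matched in the RefSeq gene table, so that positions and sequences are not given.

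R 4.3.3 with edgeR 4.0.16 and DESeq2 1.42.0, and Python 3.11.15 with matplotlib 3.10.9 were used. Counts were filtered with filterByExpr (minimum count 10, minimum total 15), scaled by TMM (factors between 0.947 and 1.05 over 8 libraries) and tested with edgeR's quasi-likelihood test in fits of the 4 libraries compared, or of 8 for the mean of the conjugates. The Benjamini-Hochberg adjustment covered all genes tested, with a threshold of 0.01. Standard errors are the absolute log2 fold change divided by the square root of the F statistic, and the 95% intervals use its degrees of freedom. Log2 CPM used a prior count of 2. The test was tried on simulated counts modelled on IBA-Ala against the control. It called 74 of 100 genes changed by a log2 fold of 2 and 93 of 100 changed by 3. It also called 4 unchanged genes. The changed genes were drawn from those with a mean above 2 CPM, and smaller changes, such as those of the members, were not simulated. In the real libraries of this comparison, edgeR's quasi-likelihood test called 1 of 27011 genes. There *YDK1*, with a log2 fold change of 5.63, had an adjusted *p* of 0.0101. The simulated shares therefore do not give the power of the test in these libraries. The study compared with the control by DESeq2, which is an alternative here.

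The genes named are the 3 members, the 12 genes of a legend and the 2 genes most correlated with each member. The members and lists were chosen with earlier results of these data known. As alternatives, DESeq2, RLE scaling, library totals, no filter, a minimum of 10 counts in each library, a joint fit of 8 libraries, a block for the replicate number (alone and in the joint fit), the edgeR 3 form of the test and a threshold of 0.05 were tried, and each library was left out in turn.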

Additional observations from a re-analysis of the deposited data

How the results depend on the processing

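No alternative brought any of the 3 genes past an adjusted *p* below 0.01. Of 204 values from settings other than leaving out a library, 202 kept the direction and were not past the threshold, with no adjusted *p* from DESeq2 for *GH3.18* in 2 of them. The exceptions came with scaling by library totals alone, where IBA-Ala against IAA-Ala gave log2 fold changes of 0.065 for *GH3.11* and 0.085 for *GH3.18*. With a library left out in turn, 77 of 96 values kept both. Where 1 library was left in a group, it was assumed to vary like the others. Against the control, *GH3.18* ranged from -1.35 to 0.31 for IAA-Ala, from -1.20 to 0.45 for IPA-Ala, from -1.60 to 0.30 for IBA-Ala and from -1.31 to 0.36 for the mean of the conjugates. *GH3.11* ranged from -0.14 to 0.26 for IPA-Ala and from -0.017 to 0.39 for IBA-Ala. Between IPA-Ala and IAA-Ala the ranges were -0.38 to 0.015 for *GH3.11* and -0.10 to 0.32 for *GH3.18*. Between IBA-Ala and IAA-Ala they were -0.24 to 0.16 and -0.88 to 0.55. Between IBA-Ala and IPA-Ala they were -0.10 to 0.33 for *GH3.11*, -0.18 to 0.40 for *GH3.15* and -1.03 to 0.40 for *GH3.18*. The cause was not tested.

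The replicate differences of 2 groups correlated between -0.16 and 0.16 across genes. Weak correlations of this kind do not settle whether the replicate numbers pair the samples. With the replicate number as a block, *GH3.15* had a log2 fold change of -0.97 for IAA-Ala against the control (adjusted *p* = 0.174 in edgeR's test) and of 0.49 for IBA-Ala against IAA-Ala (adjusted *p* = 0.0489). With the block in the joint fit of 8 libraries, the latter was 0.50 with an adjusted *p* of 0.340. The count of all genes called depended on the setting, from 6 to 370 for IAA-Ala, from 15 to 416 for IPA-Ala and from 0 to 1049 for IBA-Ala against the control, where 13, 131 and 1 were called. Between conjugates, up to 875 genes were called for IPA-Ala against IAA-Ala, 2201 for IBA-Ala against IAA-Ala and 91 for IBA-Ala against IPA-Ala, where 0 were called. The 1049 and 2201 genes came with the replicate number as a block in fits of the libraries compared. With the block in the joint fit of 8 libraries, 304 and 0 were called for the same comparisons. The counts of *GH3.18*, 15 to 57 per library, limit what can be shown for it.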
